A study of Mus musculus with 15 samples.

Results

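The cells described here came from the prefrontal cortex (PFC) of adult mice at the end of the maintenance phase of cocaine self-administration, and the question was which genes and cell classes differed between cocaine and saline at that time. They were the cells of the deposited cell table with the developmental stage Adult and the period Maintenance, 5309 of the 24822 retained adult cells and of the 35360 retained cells of the whole series, which also holds adolescent PFC. Male C57BL/6N mice of 8 to 10 weeks carried a catheter in the jugular vein and pressed a lever for infusions of cocaine, or of saline in the control group, and the PFC was taken after 15 days of maintenance with no withdrawal. Each group had 2 libraries, each made from the pooled PFC of 2 mice: libraries 1 and 4 (cocaine replicates 1 and 2, 1504 and 1472 cells) and libraries 2 and 3 (saline replicates 1 and 2, 1278 and 1055 cells). The 8 other adult libraries, 2 of cocaine and 2 of saline at each of 48 h and 15 days of withdrawal, entered the fits to estimate the spread between libraries. All animals, saline controls included, had the surgery and the lever training with food. The tissue entry of the labels names the nucleus accumbens, whereas the titles, the source entry and the study's methods name the PFC.

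The PFC receives dopamine fibres from the midbrain and takes part in the control of reward seeking. Cocaine blocks the reuptake of dopamine and other monoamines, and neurons driven by it can switch on immediate early genes, a set of transcription factors and synaptic proteins that respond to activity within minutes to hours. The cortex also holds glia and vessels. Microglia are the resident macrophages of the brain tissue, and a separate set of macrophages lies around vessels and in the meninges and is known for genes such as Mrc1, which encodes a mannose receptor.

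Single-cell RNA sequencing counted unique molecular identifiers (UMIs), each standing for 1 captured RNA molecule. The 4 libraries held 8375172 to 11998611 UMIs in retained cells, with a median of 3426 to 9041 UMIs per cell, and the median mitochondrial fraction was 0.0253 to 0.0326. Pairs of libraries shared at most 5 cell barcodes. Library 3 stood apart in its cell make-up and is taken up with the cell shares. The class names held against their markers: the summed level of the excitatory markers was 1550 to 1692 CPM (UMIs of a gene scaled to a common total in each library and class) in excitatory neurons against at most 187 in any other class, and the summed microglial markers were at 40854 to 45756 CPM in microglia against at most 89.7 elsewhere. Markers of striatal neurons summed to 156 and 105 CPM in the inhibitory neurons of libraries 1 and 4 and to 438 and 61.8 in those of libraries 2 and 3.

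UMIs were summed per library and cell class, and cocaine was compared with saline by edgeR's quasi-likelihood test with Benjamini-Hochberg adjustment. A gene was called where its adjusted p was below 0.05 and its change above 1.5-fold. Fold changes are cocaine over saline on the log2 scale with their standard error (SE), and values of single libraries are given as CPM in the order libraries 1 and 4 for cocaine and libraries 2 and 3 for saline. The 2 libraries of a group came from different animals, so p-values here measure the spread between pools of mice.

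Microglia gave 5 called genes of 5209 tested (0.096%), all lower in cocaine, and no gene was called in the 4 other classes that could be tested. In excitatory neurons 0 of 13171 genes were called (0%), while 458 (3.48%) were higher and 413 (3.14%) lower at an unadjusted p below 0.05. In inhibitory neurons 0 of 8687 were called, with 221 (2.54%) higher and 137 (1.58%) lower at that unadjusted level. Oligodendrocytes had 0 called of 6437, with 126 (1.96%) higher and 83 (1.29%) lower. Endothelial cells had 0 called of 10057, with 275 (2.73%) higher and 172 (1.71%) lower. DESeq2 called 2 genes in excitatory neurons, 4 in oligodendrocytes, 7 in microglia and 0 in the remaining 2 classes. Outside microglia, the genes named below for a whole class did not pass and are given for their values. Those with the smallest p were named by p alone. A small p favours groups that do not overlap, so the lack of overlap is no result for them. Over all tested genes, groups did not overlap with higher values in cocaine for 16.6% in excitatory neurons, 14.5% in inhibitory neurons, 15.1% in oligodendrocytes, 14.3% in microglia and 15.6% in endothelial cells. With lower values in cocaine the shares were 12.8%, 15.4%, 16.7%, 17.8% and 16.1%.

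**Figure D1:**
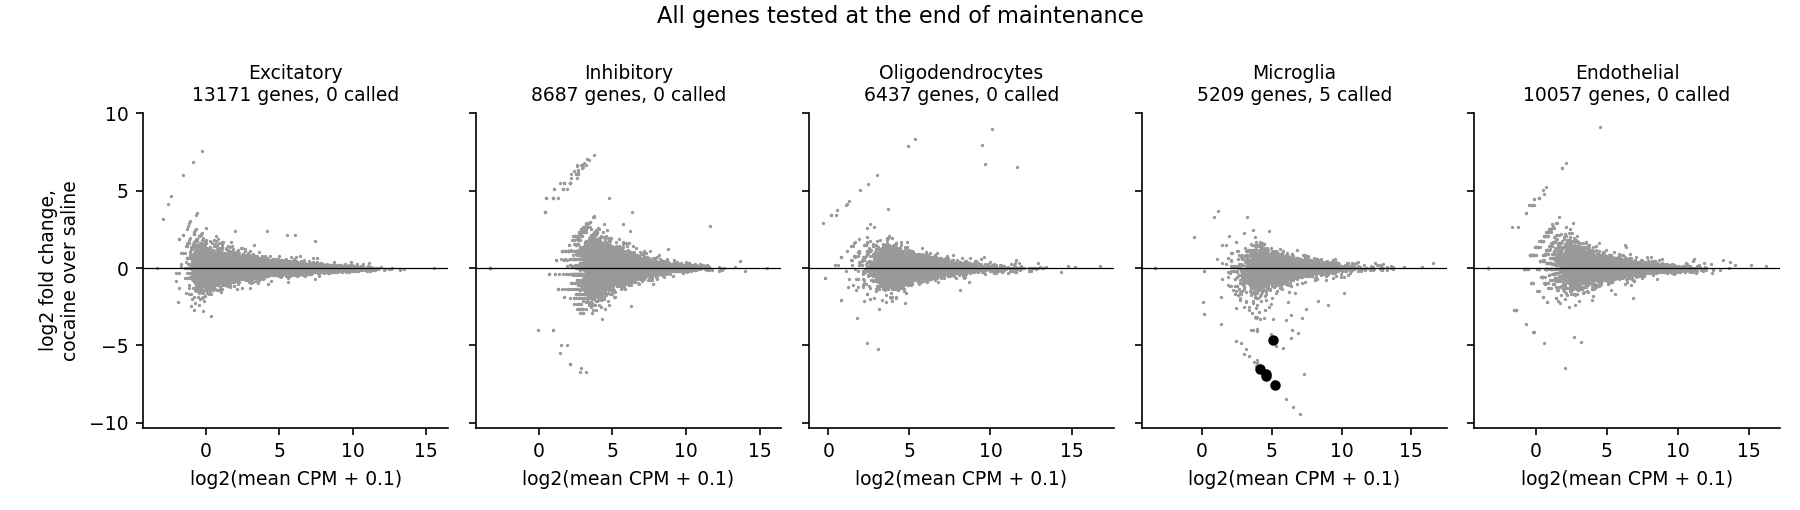
Each panel plots 1 cell class, with the log2 of the mean CPM plus 0.1 on the x axis and the log2 fold change of cocaine over saline on the y axis; each grey point is a tested gene and black points are the called genes. Black points appear in microglia only, where all 5 lie below 0, while the widest scatter in every class is among genes of low mean CPM.

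In microglia, Mrc1, F13a1, Clec4n, Cd209a and Ms4a7 fell in cocaine. All 5 are known as genes of macrophages at the vessels and borders of the brain rather than of microglia: F13a1 encodes a chain of coagulation factor XIII, Clec4n (also known as dectin-2) and Cd209a (a relative of DC-SIGN) encode sugar-binding receptors, and Ms4a7 encodes a membrane protein of tissue macrophages. Mrc1 was at 2.28 and 2.10 CPM in cocaine and at 66.7 and 65.8 CPM in saline. These levels rest on 1 and 1 UMIs against 33 and 17, a ratio of 30.4 with a 95% counting interval of 7.98 to 258, and the adjusted p was 0.00557. F13a1 had no UMI in either cocaine library and 32.3 and 62.0 CPM in saline. It was at least 12.95-fold lower in cocaine (adjusted p = 0.0265), where the bound sets 3 UMIs over the cocaine group against the UMIs seen in saline. The bounds and the interval for these 5 genes treat UMIs as independent. Most saline UMIs of the 5 genes lay in 8 cells, so both understate the uncertainty.

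The other called genes had the same pattern of no UMI in both cocaine libraries. Clec4n was at 26.3 and 46.5 CPM in saline and at least 10.1-fold lower in cocaine (adjusted p = 0.0437). Cd209a was at 36.4 and 62.0 CPM in saline and at least 13.8-fold lower (adjusted p = 0.0437). Ms4a7 was at 46.5 and 105 CPM in saline and at least 20.2-fold lower (adjusted p = 0.0474). For each of the 5 genes both cocaine libraries lay below both saline libraries, as the naming rule required, and also below all 8 withdrawal libraries. Those 8 libraries, from cocaine and saline animals alike, ranged from 25.0 to 108 CPM with a median of 49.1 for Mrc1 and from 27.6 to 138 CPM with a median of 62.4 for F13a1. Cd209a came nearest to the cocaine level there, with a lowest value of 4.17 CPM from a single UMI.

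**Figure D2:**
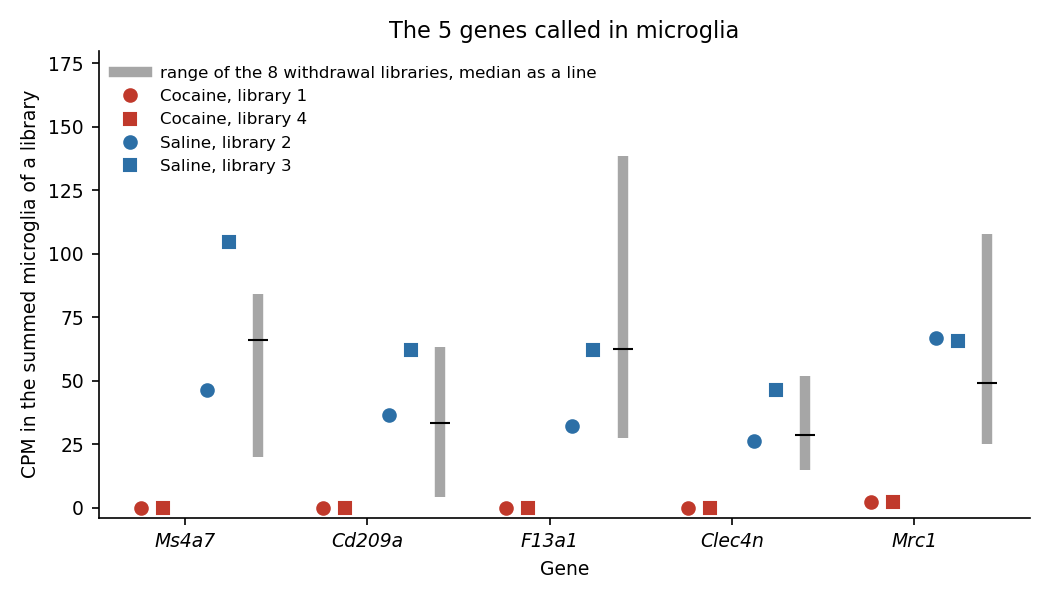
For each called gene the points give the CPM in the summed microglia of cocaine libraries 1 and 4 (red) and saline libraries 2 and 3 (blue), and the grey bar gives the range over the 8 withdrawal libraries with its median as a line. The cocaine points sit at 0, or at 2.28 and 2.10 CPM for Mrc1, below every blue point and every grey bar.

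In the mm9 build (NCBIM37), Mrc1 lies on the plus strand at chr2:14151041-14253684, F13a1 on the minus strand at chr13:36959047-37142113 and Clec4n on the plus strand at chr6:123179861-123197039. Cd209a lies on the minus strand at chr8:3743395-3748984 and Ms4a7 on the minus strand at chr19:11395529-11410636. The 5 genes are protein coding and lie on different chromosomes.

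Few cells carried these transcripts. UMIs of at least 2 of the 5 genes were found in 0 of 192 and 0 of 181 microglia of the cocaine libraries, which allows shares of up to 1.56% and 1.66% at 3 cells, or of 1.90% and 2.02% as the upper ends of exact 95% binomial intervals. In saline they were found in 4 of 195 cells (2.05%, exact 95% binomial interval 0.562 to 5.17) and 4 of 99 cells (4.04%, 1.11 to 10.0). The 8 withdrawal libraries each held 2 to 8 such cells. The intervals cover counting error within a library only, and the cells are defined by the called genes, so these counts describe where the UMIs lay and do not test the groups. The 8 saline cells carried 91.6% of the saline UMIs of the 5 genes. Among excitatory neurons, 0 cells of any adult library carried 2 of the genes. In the 4 maintenance libraries the median depth was 11810 to 14834 UMIs in excitatory neurons and 2930 to 3054 in microglia. In the endothelial class, which holds other cells of the vessel wall, such cells numbered 0 and 0 in cocaine against 0 and 1 in saline, and 0 to 4 in each withdrawal library. In the summed microglia, fewer cells of a kind and less RNA per cell cannot be told apart.

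The 8 cells had been placed in 2 of the microglial clusters of the cell table, 3 cells in cluster 1 and 5 in cluster 2, at 2738 to 20342 UMIs each. The cell with 20342 UMIs, from library 2, held 41 of the 103 UMIs of the 5 genes in the microglia of that library. It also held 1272 UMIs of red blood cell markers. It was thus among the cells left out in the fit without cells of 100 or more such UMIs, given below. Both clusters were present in all 4 libraries, with 14 and 12 cells of cluster 1 in cocaine against 11 and 13 in saline, and with 24 and 21 cells of cluster 2 against 28 and 18. Summed neuron markers in microglia were at 185 and 957 CPM in cocaine against 685 and 740 CPM in saline, and summed mural cell markers at 11.4 and 8.39 against 8.08 and 96.8 CPM. Those of red blood cells were at 116 and 15308 against 15076 and 147 CPM. These 3 sums overlapped between the groups. Sums that did not overlap were those of astrocytes (509 and 478 against 402 and 341 CPM), endothelial cells (54.8 and 35.7 against 34.4 and 27.1 CPM), newly formed oligodendrocytes (41.1 and 42.0 against 28.3 and 11.6 CPM) and oligodendrocyte precursors (4.57 and 2.10 against 0 and 0 CPM), these 4 higher in cocaine, and that of striatal neurons (2.28 and 2.10 against 8.08 and 3.87 CPM), which was lower. The part of these markers in the result was not tested.

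Other genes known from border macrophages and antigen-presenting cells had the same order in these libraries and did not pass. Pf4, a platelet and macrophage chemokine, had no UMI in cocaine and was at 226 and 291 CPM in saline, from 4 and 3 cells. The antigen-presentation gene H2-Aa likewise had no UMI in cocaine and was at 238 and 124 CPM in saline, from 3 and 4 cells. Cd74, the invariant chain of MHC class II, was at 151 and 174 against 911 and 821 CPM, and the scavenger receptor gene Cd163 at 0 and 0 against 24.3 and 7.75 CPM. These 4 genes were picked after their values were seen, and their adjusted p was 0.939 for Cd163 and 1 for the others. The next gene by p, Cyr61, a matricellular immediate early gene, was at 0 and 0 against 18.2 and 34.9 CPM, at least 7.29-fold lower with an adjusted p of 0.0687.

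On the side of genes higher in cocaine, none passed in microglia, where 71 (1.36%) were higher and 107 (2.05%) lower at an unadjusted p below 0.05. The 6 with the smallest p were led by Wdr70, at 45.7 and 50.4 against 10.1 and 7.75 CPM (log2 fold change 2.37, SE 0.59, adjusted p = 0.346). Npy, which encodes neuropeptide Y, had 8 and 7 UMIs against 0 and 1, a ratio of 12.4 with a counting interval of 1.90 to 520. Mt3, a metallothionein gene, was at 139 and 250 against 125 and 85.2 CPM, and the complex I subunit gene Ndufa3 at 338 and 390 against 263 and 221 CPM. Dynlt3, a dynein light chain gene, was at 103 and 124 against 60.6 and 65.8 CPM, and the noncoding transcript 2010003O02Rik at 82.2 and 73.4 against 42.4 and 27.1 CPM.

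Genes of microglia proper gave no call. Of the 25 tested genes of the homeostatic list (surface receptors, complement and lysosomal genes of resting microglia), 18 had a positive fold change, 1 was higher at an unadjusted p below 0.05 and the median was 0.13, against a median of 0.00 over all tested genes. That gene was Cst3, a protease inhibitor, at 115662 and 93186 against 96760 and 78265 CPM, values that overlap. Of 27 tested inflammatory cytokine and activation genes, 8 were positive, 0 had an unadjusted p below 0.05 and the median was -0.14. Of 25 tested immediate early genes in microglia, 17 were positive and the median was 0.06. At the unadjusted level 0 were higher and 2 lower, Cyr61 and Klf6, where 1.36% of all tested genes were higher and 2.05% lower.

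The call of the 5 microglial genes depended on few cells and libraries. Without cocaine library 1 none was called, with adjusted p-values of 0.102 for Mrc1 and 0.190 to 0.251 for the rest, and without saline library 3 Mrc1 alone was called. With equal numbers of microglia from each library, and without the cells of 100 or more red blood cell UMIs, no gene was called, the latter with an adjusted p of 0.064 for F13a1. With p adjusted over all 5 classes together 1 gene was called, and with the class column of the cell table in place of the classes used here 2 were. Without cocaine library 4 Mrc1 and F13a1 were called and Clec4n, Cd209a and Ms4a7 were not (adjusted p = 0.0845, 0.0845 and 0.0762), and from the 4 maintenance libraries alone Mrc1 and Ms4a7 were called. With RLE size factors Ms4a7 was not called (adjusted p = 0.0660), and DESeq2 did not call Clec4n (adjusted p = 0.0781). The fold change of each gene was negative in every refit with other size factors, DESeq2, the 4 libraries alone, equal numbers of cells or 1 library left out, except that Cd209a was not tested with equal numbers of cells. With 0 or 1 UMIs of each gene in each cocaine library, this sign was set by the counts and gives no separate support.

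The cocaine effect on 2 of these genes differed between the end of maintenance and 15 days of withdrawal. The difference of the 2 contrasts was called for F13a1 and Mrc1 (adjusted p = 0.0466 each, 2 of 5209 genes, 0.0384%). For Mrc1 the maintenance effect was 5.11 log2 units below that at 15 days (SE 0.94), where cocaine and saline differed by 0.43 (SE 0.54). For F13a1 the effect at 15 days was 0.89 (SE 0.53). No gene was called for the difference in the other 4 classes, nor in any class for the difference from the effect at 48 h, where the adjusted p of F13a1 and Mrc1 was 0.218. Without library 1, and without library 3, the difference from 15 days was called for 0 genes.

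Excitatory neurons were the largest class, with 570 and 694 cells in cocaine and 321 and 634 in saline, and the test over the whole class gave no call. The 6 genes with the smallest p that were higher in cocaine included Qk, which encodes the RNA-binding protein quaking, and Elfn1, which encodes a postsynaptic adhesion protein. Qk was at 24.9 and 26.8 against 18.4 and 12.8 CPM (log2 fold change 0.75, SE 0.16, adjusted p = 0.735). Elfn1 was at 5.67 and 4.23 against 1.79 and 1.81 CPM (1.41, SE 0.30). Tspan2, a tetraspanin gene of oligodendrocytes, was at 5.28 and 4.48 against 2.69 and 1.69 CPM, and Avl9 at 23.6 and 20.7 against 16.6 and 11.5 CPM. The histone gene Hist1h2be and the stress gene Nupr1 had no UMI in saline and were at 1.45 and 1.49 and at 1.32 and 0.498 CPM in cocaine, at least 6.26-fold and 3.81-fold higher. The adjusted p was 0.735 for all of the 6.

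Of the genes lower in cocaine, 6330527O06Rik had the smallest p of the class, at 147 and 116 against 250 and 179 CPM (-0.72, SE 0.13, adjusted p = 0.735). DESeq2 called this gene, with an adjusted p of 0.00647. Pparg, which encodes a nuclear receptor of lipid metabolism, was at 1.98 and 2.99 against 5.15 and 7.25 CPM (-1.39, SE 0.31). Sptlc2, a subunit of the enzyme that begins sphingolipid synthesis, was at 6.60 and 6.60 against 11.4 and 10.6 CPM. Oscp1 was at 69.4 and 53.7 against 84.1 and 90.4 CPM, the splicing factor gene Cdc40 at 56.8 and 51.6 against 76.1 and 71.8 CPM, and Rai2 at 10.3 and 9.59 against 14.5 and 16.7 CPM.

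Within finer clusters of excitatory neurons, 7 genes were called. These are the numbered clusters of the deposited cell table, and their numbers were not matched to those of the study's excitatory subtypes. Of 26 such clusters, 15 had at least 10 cells in each of the 4 libraries, and 5225 to 8944 genes were tested in each. Calls came from 3 clusters, and 12 clusters had 0, with 6007 tests of 108236 at an unadjusted p below 0.05. The share called over all 15 clusters was 0.00647%, made up of 3 genes in cluster 3 (0.047%), 1 in cluster 10 (0.0126%) and 3 in cluster 11 (0.0476%). The clusters are small: libraries 1 and 4 held 42 and 23 cells of cluster 3 and libraries 2 and 3 held 13 and 29. For cluster 10 the numbers were 28 and 33 against 21 and 26, and for cluster 11 they were 11 and 15 against 16 and 12.

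In cluster 3, Pcdh17, Mobp and Nmt1 rose in cocaine. Pcdh17, which encodes a protocadherin of synaptic adhesion (chr14:84843370-84936867, plus strand), was at 191 and 205 against 55.0 and 54.6 CPM (1.80, SE 0.30, adjusted p = 0.000249). Nmt1, the enzyme that attaches myristate to proteins (chr11:102889504-102930226, plus strand), was at 334 and 308 against 201 and 115 CPM (1.11, SE 0.24, adjusted p = 0.0353). Mobp, a myelin gene and a marker of oligodendrocytes (chr9:120058860-120090602, plus strand), was at 43.2 and 20.5 CPM in cocaine and had no UMI in saline, at least 6.40-fold higher (adjusted p = 0.0353).

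In cluster 10, Pcp4 rose. Pcp4, a small protein that binds calmodulin and a marker of deep-layer cortical neurons (chr16:96689213-96747400, plus strand), was at 1380 and 1759 against 887 and 702 CPM (0.97, SE 0.18, adjusted p = 0.00970). Over the whole excitatory class the groups overlapped for Pcp4, at 1473 and 2165 against 1698 and 1262 CPM.

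In cluster 11, Dpysl2 and Rorb rose and Ppap2a fell. Dpysl2 encodes CRMP2, a protein of axon growth (chr14:67421701-67487525, minus strand), and was at 742 and 410 against 208 and 215 CPM (1.37, SE 0.23, adjusted p = 5.6e-05). Rorb, a nuclear receptor gene best known from layer 4 (chr19:19005095-19185686, minus strand), was at 401 and 296 against 170 and 103 CPM (1.21, SE 0.28, adjusted p = 0.0422). Ppap2a, a lipid phosphatase gene (chr13:113591102-113658089, plus strand), had 1 and 2 UMIs in cocaine against 19 and 17 in saline, a ratio of 10.5 with a counting interval of 3.32 to 53.3 (adjusted p = 0.000817).

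**Figure D3:**
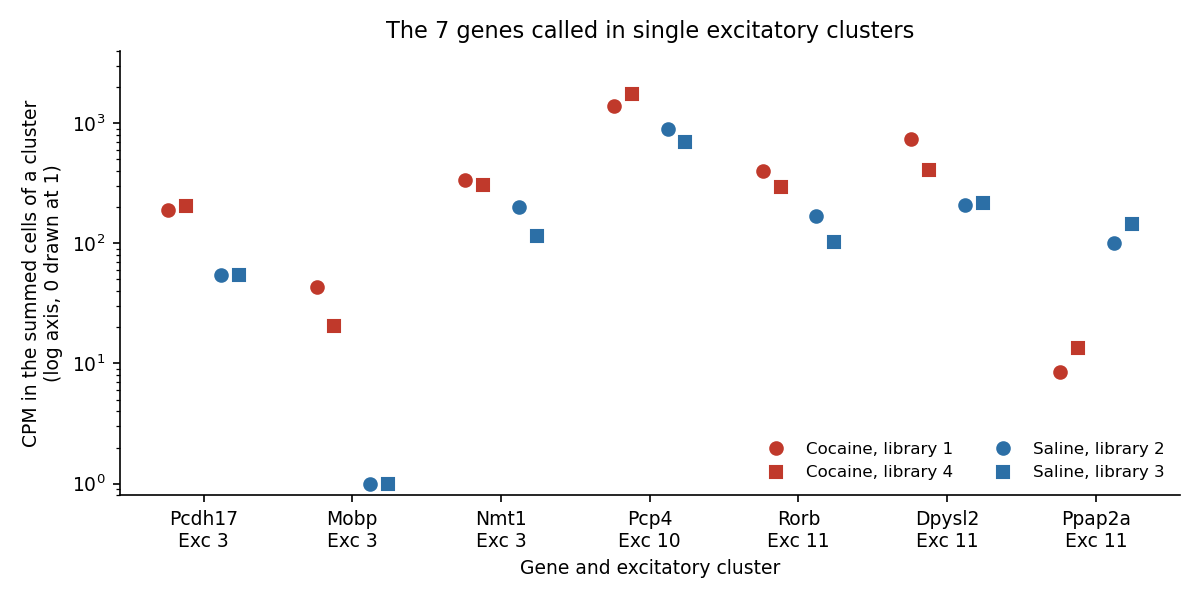
The CPM of the 7 genes called in single excitatory clusters is plotted on a log axis, with 0 drawn at 1, for the summed cells of the cluster named under each gene; red points are cocaine libraries 1 and 4 and blue points saline libraries 2 and 3. Red and blue points do not overlap for any gene, and Ppap2a is the gene with the red points below the blue. A small p favours groups that do not overlap, so the lack of overlap is no result for these genes.

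The values of these genes in the other clusters and in the class varied. Nmt1 had a positive fold change in all 14 other clusters, with 9 of them at an unadjusted p below 0.05 and a median of 0.69, while the class value was 0.66 (SE 0.19, adjusted p = 0.735). Dpysl2 was positive in 14 of 14 other clusters, 6 of them at the unadjusted level, with a median of 0.43, and Pcdh17 in 12 of 14. Pcp4 was positive in 7 of 14, Mobp in 6 of the 10 where it was tested and Rorb in 7 of 7, while Ppap2a was negative in 11 of 14. The clusters share their libraries, so these counts are not independent. With p adjusted over all 15 clusters together, a setting chosen after the data were seen, Pcdh17, Pcp4, Dpysl2 and Ppap2a were called and the remaining 3 were not. Without cocaine library 4 the count of calls over the clusters was 38, and without saline library 2 it was 21.

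Markers of several other cell types in excitatory neurons were higher in both cocaine libraries than in both saline libraries. The sum for oligodendrocytes was 172 and 128 CPM in cocaine against 126 and 57.4 CPM in saline, that for astrocytes 442 and 442 against 413 and 337 CPM, and that for red blood cells 386 and 589 against 157 and 106 CPM. For microglia the sum was 16.6 and 15.7 against 13.4 and 9.79 CPM. Sums of a few CPM were also higher, for mural cells (7.39 and 7.60 against 6.94 and 6.77 CPM) and oligodendrocyte precursors (3.30 and 1.12 against 0.895 and 1.09 CPM). That for inhibitory neurons was 1.19 and 1.37 against 0.895 and 0.725 CPM. The sums for endothelial cells (18.6 and 22.7 against 21.5 and 27.1 CPM), newly formed oligodendrocytes (53.7 and 37.7 against 53.5 and 38.7 CPM) and striatal neurons (46.8 and 63.3 against 94.4 and 49.8 CPM) overlapped between the groups. Mbp, a main protein of myelin, was at 123 and 89.1 against 85.9 and 37.7 CPM in excitatory neurons. The 23 tested genes of the myelin list had a median of 0.62, against 0.01 over all tested genes. At the unadjusted level 5 were higher and 2 lower, where 3.48% of all tested genes were higher and 3.14% lower. The part of such transcripts in the values of Mobp, Qk and Tspan2 was not tested.

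No immediate early gene was called in excitatory neurons. Of 40 on the list 36 were tested, 6 were higher and 0 lower at an unadjusted p below 0.05, and over all tested genes of the class those shares were 3.48% and 3.14%. Of the 36, 17 were positive and 19 negative, and the median was -0.00 against 0.01 over all tested genes. The 6 were Egr2, Nr4a3, Homer1, Fosl2, Jund and Jun. Egr2, a zinc finger transcription factor gene, was at 4.88 and 3.74 against 2.24 and 1.33 CPM (1.33, SE 0.33), and the nuclear receptor gene Nr4a3 at 12.1 and 12.0 against 7.61 and 5.32 CPM (0.92, SE 0.23). Homer1, a scaffold of glutamate receptors, was at 187 and 164 against 159 and 108 CPM (0.39, SE 0.13). Adjusted p was 0.735 for these 3.

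Of the best known members, Egr1 was at 217 and 215 against 213 and 139.5 CPM (0.28, SE 0.16). Its groups did not overlap, as for 16.6% of all tested genes of the class on the higher side. Several others overlapped between the groups. Fos was at 61.6 and 78.7 against 53.9 and 89.0 CPM, Npas4 at 22.0 and 34.3 against 21.5 and 36.4 CPM and Arc at 12.0 and 45.7 against 49.0 and 21.4 CPM. For Arc the libraries of 1 group lay further apart than the group means of 28.9 and 35.2 CPM. Junb was at 30.3 and 80.8 against 47.2 and 54.2 CPM. Bdnf, a neurotrophin gene, was at 156 and 134 against 148 and 186 CPM. With 1 library left out in turn, 2 to 7 genes of the list were higher and 0 to 2 lower at the unadjusted level.

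Dopamine receptor transcripts were sparse. Drd1a, which encodes the D1 receptor, was the most abundant of the 5, with 52 and 92 UMIs in the excitatory neurons of cocaine and 31 and 48 in saline, or 6.86 and 11.5 against 6.94 and 5.80 CPM. Drd5 had 12 and 7 UMIs against 4 and 5, Drd2 had 4 and 6 against 0 and 5, Drd4 had 4 and 0 against 2 and 3, and Drd3 had no UMI in any of the 4 libraries. These values overlap or rest on so few UMIs that no difference was detectable at this depth. Of the 25 tested genes of dopamine signalling, 1 was higher and 1 lower at the unadjusted level, the transcription factor gene Creb1 and the phosphodiesterase gene Pde7b. Over all tested genes of excitatory neurons 3.48% were higher and 3.14% lower at that level.

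No synaptic or calcium gene of the lists was called in excitatory neurons. Of 35 tested genes of glutamate receptors and scaffolds 3 were higher and 1 lower at the unadjusted level, with a median of -0.01, where 3.48% of all tested genes were higher and 3.14% lower. GABA receptor and synthesis genes had 0 higher and 1 lower of 20. Calmodulin and calcium signalling, synaptic vesicle release and synaptic adhesion each had 1 higher and 1 lower, of 33, 34 and 23 tested. Grik3, a kainate receptor subunit gene, was at 24.1 and 33.4 against 22.6 and 17.2 CPM, and Grm3, a metabotropic receptor gene, at 44.5 and 44.1 against 59.5 and 54.4 CPM. Groups did not overlap for either, as for 16.6% of all tested genes of the class on the higher side and 12.8% on the lower.

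Genes of energy metabolism showed small values in excitatory neurons. Of 36 genes of glycolysis and the tricarboxylic acid cycle 31 were negative with a median of -0.09, while 1 was higher and 2 lower at the unadjusted level. Without library 3, 22 of the 36 were positive and the median was 0.02, while without library 2 the median was -0.22 with 3 higher and 13 lower. The median was -0.05 without library 1 and -0.13 without library 4. The 78 nuclear genes of oxidative phosphorylation had a median of -0.01 with 0 at an unadjusted p below 0.05. Here too the sign depended on the library: 59 of the 78 were positive without library 1 (median 0.09, 3 higher at the unadjusted level) and 73 were negative without library 4 (median -0.13, 4 lower). Without library 2 the median was -0.05 with 10 lower, and without library 3 it was 0.04 with 0 at that level.

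In excitatory neurons, targets of glucocorticoid hormones and clock genes had 3 and 2 members higher and 0 lower at the unadjusted level, of 21 and 20 tested, with medians of 0.07 and 0.10. Over all tested genes of the class, 3.48% were higher and 3.14% lower at that level, which also applies to the lists below. Tsc22d3, a glucocorticoid-induced gene, was at 55.1 and 62.4 against 47.2 and 39.3 CPM (0.43, SE 0.12, adjusted p = 0.735). Per2, a core clock gene, was at 14.0 and 15.6 against 13.2 and 7.73 CPM, and Nfil3, a clock output regulator, at 4.35 and 3.49 against 1.79 and 1.93 CPM. Neither set of values overlapped between groups, as for 16.6% of all tested genes of the class on the higher side. Of 46 chromatin regulators 2 were higher and 0 lower, and of 36 cytoskeleton and growth genes 3 were higher and 0 lower, Dpysl2, Marcks and Tubb2b. Neuropeptides had 1 higher of 22, Nts. Of 18 interferon and MHC class I genes 2 were lower, Ifit3 and B2m, the latter at 108 and 108 against 147 and 132 CPM.

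Inhibitory neurons were few, with 34 and 48 cells in cocaine and 19 and 28 in saline, and no gene passed. Gpx3, which encodes an extracellular glutathione peroxidase, had 7 and 26 UMIs against 1 and 0, a ratio of 24.0 with a counting interval of 4.02 to 977 (adjusted p = 0.670). The adjusted p was 1 for all others named in this class. Stard3nl was at 112 and 100 against 22.3 and 41.2 CPM, Cpsf6, a polyadenylation factor gene, at 92.7 and 89.5 against 22.3 and 34.4 CPM, and the guanine deaminase gene Gda at 78.0 and 103 against 44.5 and 30.9 CPM. Mgrn1 and Bccip completed the 6 that were higher.

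On the lower side the largest counts were those of Mtap1a, a microtubule-associated protein gene, at 219 and 168 against 327 and 319 CPM (-0.73, SE 0.21). Cryzl1 was at 137 and 137 against 223 and 247 CPM. Trmt11, Brf2, Papss1 and Thoc1 completed the 6, with 2 to 8 UMIs each over both cocaine libraries. Of 25 tested immediate early genes in inhibitory neurons 19 were positive and 0 had an unadjusted p below 0.05, with a median of 0.49. Over all genes tested in the class 51.5% were positive and the median was 0.02. The median of the list was 0.23 without library 1 and 0.25 without library 4, with 17 of 29 positive in both. It was 0.41 without library 2, with 19 of 29 positive, and 0.48 without library 3, with 18 of 29 positive. In the 4 maintenance libraries alone 4 of the genes were tested. In each of the 3 non-neuronal classes fitted 21 to 31 were tested, with 0 higher at that level.

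Oligodendrocytes, the myelin-forming cells, had 231 and 178 cells in cocaine and 209 and 41 in saline, and no gene passed. Among the 6 genes higher in cocaine with the smallest p, Hspa5, Manf and Sdf2l1 encode proteins of protein folding in the endoplasmic reticulum. Hspa5, the chaperone BiP, was at 785 and 828 against 512 and 586 CPM (0.61, SE 0.17, adjusted p = 0.576). Manf was at 251 and 259 against 144 and 158 CPM (0.81, SE 0.21), and Sdf2l1 at 68.1 and 83.6 against 29.2 and 37.5 CPM (1.30, SE 0.35). The dynein light chain gene Dynll1 was at 821 and 1056 against 628 and 555 CPM, and Kctd20 had 8 and 11 UMIs against 0 and 0, at least 3.63-fold higher. The adjusted p was 0.576 for each of these 5 genes.

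Heat shock proteins and cochaperones, which fold proteins and keep them from clumping, were read as a list. In oligodendrocytes 26 of its 30 genes were tested, 8 were higher and 0 lower at an unadjusted p below 0.05, 21 were positive and the median was 0.31 against 0.02 over all tested genes. The share at that level over all genes was 1.96% for higher values. Stip1, a cochaperone of HSP70 and HSP90, was at 178 and 239 against 136 and 90.1 CPM. Hsp90ab1 was at 3400 and 3819 against 3174 and 2004 CPM and Hsph1 at 117 and 140 against 82.5 and 37.5 CPM. Library 3, with 41 oligodendrocytes, was the lowest for all 3 genes. Without library 3 the counts were 3 higher and 0 lower with a median of 0.13, and without library 4 they were 3 higher and 1 lower with a median of 0.14. Without library 1 they were 8 higher and 0 lower with a median of 0.49, and without library 2 they were 11 higher and 1 lower with a median of 0.62. Markers of other cell types moved in this class too. The sums for astrocytes (620 and 675 against 612 and 330 CPM) and microglia (17.7 and 48.6 against 13.8 and 7.51 CPM) were higher in both cocaine libraries. Those for inhibitory neurons (23.2 and 11.7 against 39.5 and 30.03 CPM) and excitatory neurons (25.9 and 17.5 against 27.5 and 45.0 CPM) were lower. The markers shared by all neurons summed to 155 and 89.5 against 115 and 150 CPM, values that overlap. The sums for newly formed oligodendrocytes, oligodendrocyte precursors, endothelial cells and mural cells overlapped too. The part of any of these in the list's values was not tested.

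Endothelial cells had 7 heat shock genes higher and 1 lower of 30 tested, with 19 positive and a median of 0.13 against 0.02 over all tested genes, of which 2.73% were higher and 1.71% lower at the unadjusted level. Without library 4 the counts were 4 higher and 2 lower and the median -0.06, while without library 1 they were 12 higher and 0 lower and the median 0.32. Without library 2 they were 6 higher and 0 lower with a median of 0.24 and 1 gene called, and without library 3 they were 6 higher and 1 lower with a median of 0.10. In the 3 other classes 2 genes of 27 in excitatory neurons, 2 of 26 in inhibitory neurons and 0 of 23 in microglia were higher, and 0 were lower in each. The shares higher over all tested genes were 3.48%, 2.54% and 1.36%, and the shares lower 3.14%, 1.58% and 2.05%. With all 4 libraries no gene of the list was called in any class.

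**Figure D4:**
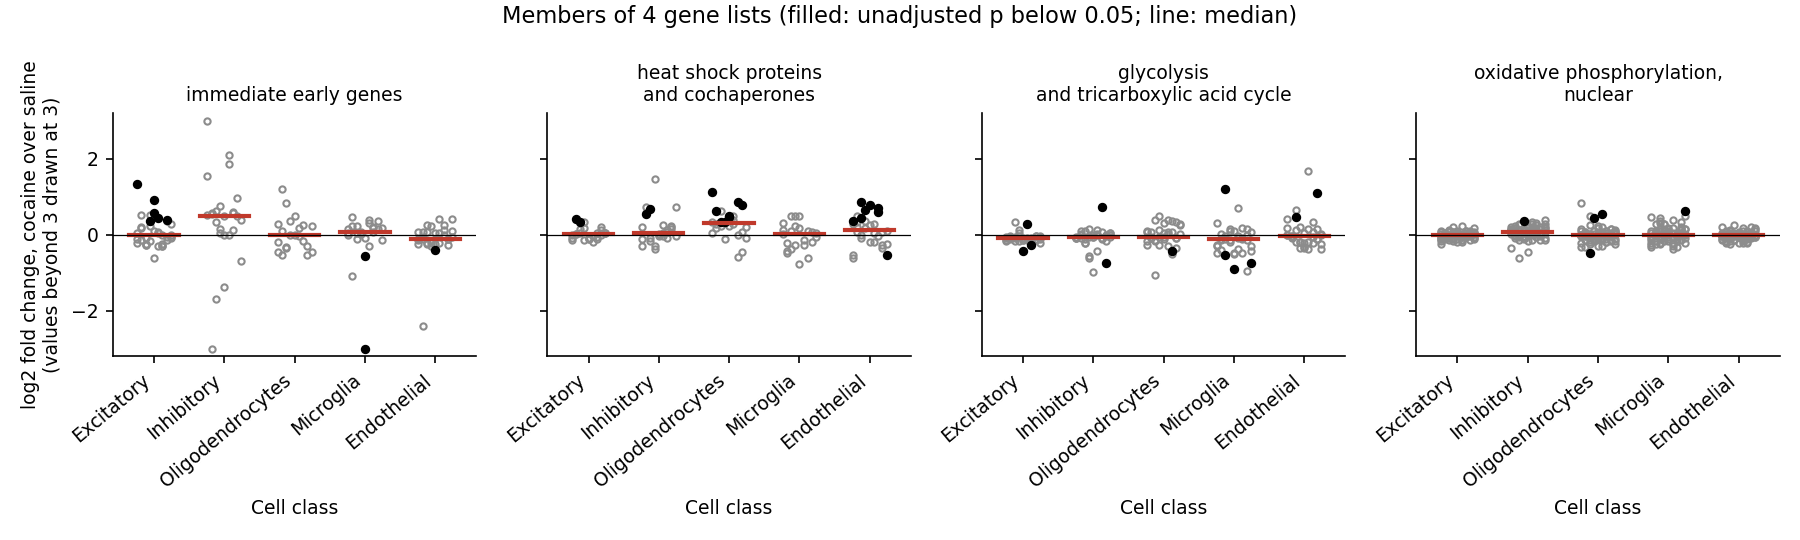
Each panel holds 1 gene list, with the cell class on the x axis and the log2 fold change of cocaine over saline on the y axis; each circle is a tested gene, filled where its unadjusted p was below 0.05, and the red line is the median. The medians lie near 0 except for heat shock genes in oligodendrocytes (0.31) and immediate early genes in inhibitory neurons (0.49), and no circle was called after adjustment. With 1 library left out the first of these medians was 0.13 to 0.62 and the second 0.23 to 0.48.

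Haemoglobin transcripts in oligodendrocytes came from a few cells. Hbb-b1, an adult beta globin gene, was at 7395 and 5196 against 75.6 and 45.0 CPM (adjusted p = 0.576). Of the UMIs of the red blood cell markers in oligodendrocytes, 9534 of 9607 in library 1 lay in 5 cells and 5068 of 5179 in library 4 lay in 1 cell, while libraries 2 and 3 had 0 cells with 100 or more. DESeq2 called 4 genes in oligodendrocytes, all of them haemoglobin genes. The paralogs Hba-a1 with Hba-a2 and Hbb-b1 with Hbb-b2 are nearly identical, so counts within each pair are uncertain. In endothelial cells the same markers summed to 46306 and 89796 CPM in cocaine against 53465 and 61824 CPM in saline, and their part in the oligodendrocyte values was not tested.

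The genes lower in oligodendrocytes rested on few UMIs. Pecr, a peroxisomal enzyme gene, was at 12.3 and 13.6 against 39.5 and 45.0 CPM (-1.62, SE 0.45, adjusted p = 0.576). Zfp687, Arnt, Zkscan14, Sfxn2 and Cadm3 followed with an adjusted p of 1 and with 0 to 9 UMIs over both cocaine libraries. The 27 tested myelin genes, the products this class is specialised for, had a median of 0.00 with 1 higher (Ugt8a) and 0 lower at the unadjusted level. Over all tested genes of the class 1.96% were higher and 1.29% lower at that level.

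Endothelial cells had 286 and 192 cells in cocaine and 218 and 242 in saline, and no gene passed. Mural cell markers summed to 6191 to 7568 CPM in this class, so it also holds cells of the vessel wall. Nmt1, called in excitatory cluster 3, had the smallest p among the endothelial genes higher in cocaine, at 144 and 112 against 85.7 and 53.0 CPM (0.93, SE 0.21, adjusted p = 0.390). St13, a cochaperone gene, was at 259 and 286 against 192 and 152 CPM (0.69, SE 0.16), and Hsp90ab1 at 2586 and 2631 against 2000 and 1551 CPM (0.58, SE 0.15, adjusted p = 0.660). Serpinh1, the collagen chaperone HSP47, was at 518 and 596 against 371 and 384 CPM. Ltc4s, the leukotriene C4 synthase gene, was at 31.9 and 31.9 against 13.7 and 8.00 CPM, and Stip1 at 78.1 and 97.0 against 60.5 and 38.0 CPM.

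Among the lower genes, Adipor2, an adiponectin receptor gene, was at 85.6 and 76.6 against 143 and 144 CPM (-0.80, SE 0.18, adjusted p = 0.390). Rbm3, a cold-induced RNA-binding protein gene, was at 340 and 214 against 439 and 468 CPM (-0.68, SE 0.16). The aquaporin gene Aqp11 was at 81.4 and 84.3 against 126 and 152 CPM and the endothelin gene Edn3 at 90.7 and 77.9 against 166 and 139 CPM. Commd10 and Sema6b completed the 6. Blood-brain barrier and endothelial genes had 2 higher and 2 lower of 44 tested at the unadjusted level and a median of 0.05. Over all tested genes of the class 2.73% were higher and 1.71% lower at that level. Kdr, the VEGF receptor 2 gene, was at 455 and 499 against 335 and 336 CPM, and Vwf, von Willebrand factor, at 157 and 151 against 256 and 198 CPM. Both were without overlap, as were 15.6% of all tested genes of the class on the higher side and 16.1% on the lower.

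Of 7 lists of synaptic and signalling genes in endothelial cells, 6 had medians of 0.27 to 0.60 and that of 20 dopamine receptor and signalling genes was -0.00, with 10 positive and 10 negative. At the unadjusted level 5 of 29 calcium signalling genes, 2 of 13 synaptic adhesion genes, 2 of 30 vesicle release genes, 1 of 11 neuropeptide genes, 1 of 17 glutamate receptor and scaffold genes, 1 of 11 GABA genes and 0 of 20 dopamine genes were higher and 0 of any list lower, where 2.73% of all genes tested in the class were higher and 1.71% lower. Neuron markers in this class summed to 239 and 174 CPM in cocaine against 232 and 166 CPM in saline, values that overlap. Markers of 3 other classes were higher in both cocaine libraries, at 21.8 and 16.6 against 12.6 and 10.0 CPM for excitatory neurons, 207 and 186 against 166 and 108 CPM for astrocytes and 216 and 327 against 214 and 13.003 CPM for oligodendrocytes. The sums for microglia (40.3 and 37.0 against 53.7 and 39.0 CPM) and oligodendrocyte precursors (101 and 70.2 against 106 and 77.0 CPM) overlapped. So did those for inhibitory neurons, newly formed oligodendrocytes, mural cells and striatal neurons. The part of any of these markers in the values of the lists was not tested.

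Astrocytes, oligodendrocyte precursors and newly formed oligodendrocytes were not tested, since library 3 held 8, 3 and 0 of these cells. As shares of all retained cells, the 2 groups overlapped for 7 of 8 classes. Excitatory neurons made up 42.5% ± 6.54 (SD, n = 2) of retained cells in cocaine and 42.6% ± 24.7 in saline, where library 3 held 60.1% and library 2 held 25.1%. Microglia made up 12.5% ± 0.332 in cocaine and 12.3% ± 4.15 in saline. Endothelial cells were at 16.0% against 20.0%, oligodendrocytes at 13.7% against 10.1%, astrocytes at 7.24% against 10.3%, oligodendrocyte precursors at 4.01% against 2.14% and inhibitory neurons at 2.76% against 2.07%. Newly formed oligodendrocytes were the class without overlap, at 1.17% against 0.430% (exact permutation p = 0.333, two-sided). A comparison of 2 against 2 libraries cannot give an exact p below 0.333, and in the 7 other classes the SD of the saline libraries was larger than the difference of the group means. With other denominators more classes did not overlap, each with an exact p of 0.333. Inhibitory neurons were 5.63% and 6.47% of the neurons in cocaine against 5.59% and 4.23% in saline, excitatory neurons making up the rest, and oligodendrocytes were 25.7% and 24.4% of the non-neuronal cells against 22.3% and 10.4%.

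**Figure D5:**
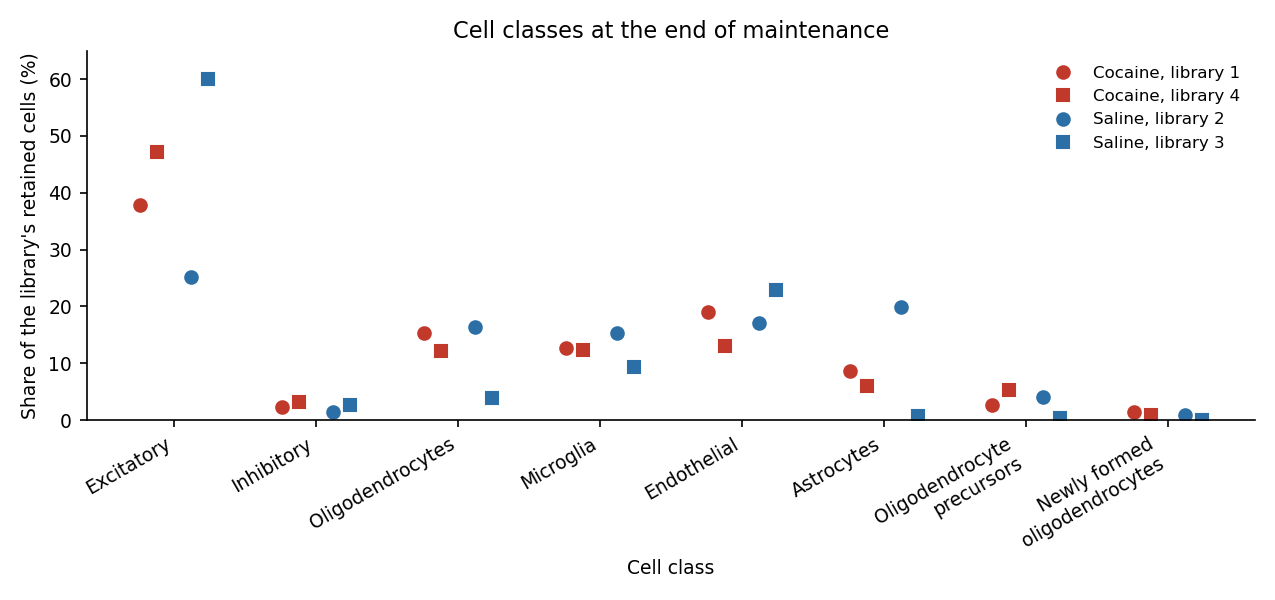
The share of each library's retained cells (y axis, %) is plotted for each cell class, with cocaine libraries 1 and 4 in red and saline libraries 2 and 3 in blue. The saline libraries lie widely apart, with library 3 highest for excitatory neurons (60.1%) and near 0 for astrocytes and oligodendrocyte precursors.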

How the data were processed

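The authors made the deposited UMI count matrices with Cell Ranger (the labels list 13.1, the study's methods another version) on mm9 with Ensembl genes, and the cell table, with clusters and a mitochondrial fraction per cell, with Seurat 2.1.0; they removed cells of high mitochondrial fraction and likely doublets. Cells with the stage Adult and the period Maintenance were taken. Classes are cluster names without their number. Counts were summed per library and class, without 13 mitochondrial and 143 ribosomal protein genes, and tested with edgeR 4.0.16 (quasi-likelihood, TMM, robust; R 4.3.3) over all 12 adult libraries with at least 10 cells, with a mean for each of 6 groups; SEs are the fold change divided by the root of F. Calls need a Benjamini-Hochberg adjusted p below 0.05 and over 1.5-fold. Excitatory clusters were tested likewise. Alternatives were DESeq2 1.42.0, RLE size factors, no filter, other cells and libraries. Scripts were tested on simulated data.

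For each class, up to 6 genes per direction were named: first called genes with groups that do not overlap (by fold), then genes by smallest p alone. Listed genes called, dopamine receptors and markers were also named. The members, gene lists and this rule were chosen with earlier results of these data known. Lists are described by counts and medians. Intervals and bounds (3 UMIs over a group; exact binomial, 95%) cover counting error only. Astrocytes, precursors and newly formed oligodendrocytes were left out of tests for lack of cells.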

Additional observations from a re-analysis of the deposited data

Results flagged for a closer look

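In microglia, the cocaine effect at the end of maintenance differed from that at 15 days of withdrawal for F13a1 and for Mrc1, by the test of the difference of the 2 contrasts in edgeR (adjusted p = 0.0466 each). F13a1 had 0 and 0 UMIs in the microglia of the cocaine libraries at the end of maintenance and 16 and 16 in saline, and at 15 days 12 and 18 UMIs in cocaine against 6 and 18 in saline. Mrc1 had 1 and 1 UMIs against 33 and 17 at the end of maintenance, and 6 and 14 against 7 and 15 at 15 days. At 48 h the fold changes were -0.32 (SE 0.45) and -0.46 (SE 0.44) and the test of the difference gave an adjusted p of 0.218 for both genes. The calls for the difference from 15 days were lost without cocaine library 1 and without saline library 3.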

How the results depend on the processing

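No paired analysis was possible because the replicate numbers follow the order of accession and the labels pair no libraries. In excitatory neurons, 0 genes were called in the reported fit, 2 with DESeq2, 40 without the filter on low counts, 4 from the 4 maintenance libraries alone and 0 to 1 with 1 library left out. Inhibitory neurons gave 1 without the filter and 0 to 1 with 1 library left out, and could not be fitted at 30 cells or more per library. Oligodendrocytes gave 4 with DESeq2, 4 without the filter, 7 from the 4 libraries alone and 0 to 1 with 1 left out. Endothelial cells gave 7 without the filter and 0 to 2 with 1 left out. In microglia the 5 calls became 17 without the filter, 0 with equal numbers of cells, 2 by the class column of the cell table, and 0 to 19 with 1 library left out (0 without cocaine library 1, 19 without cocaine library 4, 12 without saline library 2, 1 without saline library 3). After the data were seen, 2 settings were added for the classes: without cells of 100 or more haemoglobin UMIs microglia had 0 calls, with adjusted p-values of 0.064 for F13a1 and 0.072 for Mrc1, and with p adjusted over all 5 classes 1. The 7 cluster calls became 11 from the 4 libraries alone, 6 to 38 with 1 left out and 4 with p adjusted over all 15 clusters, also added later. For the difference from 15 days, 1 library left out gave 0 to 3 genes in excitatory neurons, 0 to 3 in oligodendrocytes, 0 to 10 in microglia and 0 to 1 in endothelial cells, and for 48 h 0 to 1 in microglia. As shares of non-neuronal cells, the cocaine minus saline difference was -13.4 percentage points for endothelial cells (-3.97 of all cells), 4.52 for oligodendrocyte precursors (1.88) and 1.54 for newly formed oligodendrocytes (0.743). Of 455 refits of the 60 named genes, 430 left the call as it was, 21 lost it, 4 gained it and 0 reversed. All 21 losses were refits of the 5 microglial genes, the only called genes among the 60. For the others, a call left as it was means a gene that stayed uncalled. The cause of the changes between settings was not tested, and 2 libraries per group limit every test.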
